A study of Mus musculus with 4 samples.

Results

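RING finger genes of the mouse that carry the name Rnf and a number were followed in testis RNA with and without the PIWI protein PIWIL1. Members were all identifiers of the expression table whose symbol is Rnf followed by digits alone, with Rnf17 left out, which gave 76 of 22808 identifiers. Of these, 55 reached 1 RPKM (reads scaled by gene length and library size) in at least 1 library, 16 lay below that level and 5 were listed at 0 in both libraries. Testis RNA came from Piwil1+/- and Piwil1-/- mice at postnatal day 23, with 1 library per genotype. The strain of these mice and the number of animals behind each library were not given in the labels. The reference is a heterozygote, so no wild-type testis enters the comparison. The Piwil1 gene stood at 26.2 RPKM in the heterozygote and at 0 in the Piwil1-/- library. With 1 library per genotype there was no replicate check and no test between genotypes. In whole testis, fewer cells of a type and less RNA per cell cannot be told apart.

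RING finger proteins are the commonest kind of ubiquitin ligase (E3). A ubiquitin-activating enzyme (E1) charges a conjugating enzyme (E2), and the RING domain holds that enzyme next to a substrate, which is then marked for degradation, sorting or signalling. In spermatids, ubiquitin marking is known to act in the replacement of histones, in acrosome formation and in the clearing of proteins from the shrinking cytoplasm. The genes Rnf133, Rnf148 and Rnf151 are known for expression restricted to the testis.

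On the scale used here, the testis-restricted genes were the lowest of the family in Piwil1-/- testis relative to Piwil1+/-. All other members but Rnf4 differed by less than 1.5-fold on this scale. Differences are given as log2 ratios of RPKM + 1, Piwil1-/- minus Piwil1+/-, on which changes of weakly expressed genes appear smaller than they are. Of the 55 members at 1 RPKM or more, 2 (3.64%) were at least 2-fold lower on this scale, Rnf148 and Rnf133, against 1.96% of 9951 genes past the same minimum. Rnf148 and Rnf44 reached that minimum in Piwil1+/- alone, so they could enter only as lower. Rnf135 reached it in Piwil1-/- alone, so it could enter only as higher. No member was at least 2-fold higher, against 0.231% of all genes. At 1.5-fold, 4 members (7.27%) were lower, Rnf148, Rnf133, Rnf151 and Rnf4, against 5.21% of all genes, and none was higher, against 1.42%. The median log2 ratio of the 55 members was -0.01 beside 0.01 for all genes, and 28 members lay below 0, against 48.8% of all genes. The shares of the family were thus close to those of all genes, and the low values sat in a few named members.

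**Figure D1:**
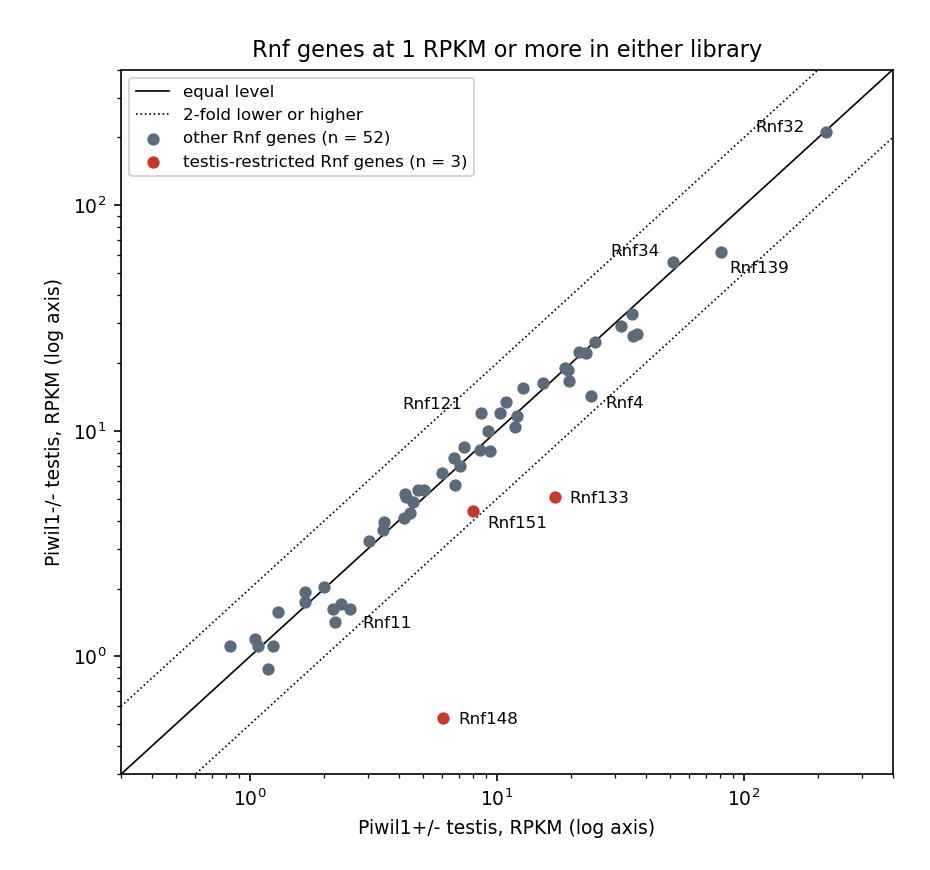
RPKM of the 55 Rnf genes at 1 RPKM or more in Piwil1+/- (horizontal) and Piwil1-/- testis (vertical), both on log axes, 1 point per gene. Rnf148 and Rnf133 lie beyond the dotted line of 2-fold lower level, Rnf151 and Rnf4 lie just inside it, and Rnf32, at 214 and 211 RPKM, lies on the line of equal level.

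Rnf133 and Rnf148 encode related transmembrane ligases with a protease-associated domain ahead of the RING, and RNF133 is known as a ligase of the endoplasmic reticulum that takes part in male fertility. The genes are neighbours on chromosome 6 (GRCm38.p6), Rnf133 at 23648869 to 23650305 and Rnf148 at 23653895 to 23655136, 3589 bp apart. Both lie within the span of Cadps2, a gene of vesicle release. Rnf151, at 24715839 to 24718057 on chromosome 17, encodes a ligase linked to acrosome formation, and it lies 63 bp from Rps2, a ribosomal protein gene.

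The bases around the starts of these genes are shown because these genes differed in the same direction. The stretches run from 80 bases before to 10 bases after the RefSeq start, were read from the minus strand of GRCm38.p6, and lie at chr6:23650296-23650385 (Rnf133), chr6:23655127-23655216 (Rnf148) and chr17:24718048-24718137 (Rnf151). The far end of the Rnf151 stretch reaches into the span of Rps2. Capitals mark ATGTCA.
Rnf133: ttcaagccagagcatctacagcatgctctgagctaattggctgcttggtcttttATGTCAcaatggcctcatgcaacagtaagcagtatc
Rnf148: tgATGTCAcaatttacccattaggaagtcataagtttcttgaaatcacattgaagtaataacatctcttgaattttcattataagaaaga
Rnf151: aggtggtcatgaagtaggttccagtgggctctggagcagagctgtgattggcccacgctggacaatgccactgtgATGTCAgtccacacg

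All 3 stretches hold ATGTCA on the strand of the gene, starting 26 bases before the start in Rnf133, 78 in Rnf148 and 5 in Rnf151. Promoter windows were searched on both strands from 250 bases before to 50 bases after each start, and 60 of the 76 members had a window. ATGTCA was in the windows of 16.1% of 27025 genes and of 3 of the 43 other members at 1 RPKM or more with a window, namely Rnf146, Rnf157 and Rnf220. The motif was chosen after these sequences were seen, so its presence in all 3 is a description. The cAMP response element TGACGTCA, the site of CREM, a transcription factor of spermatids, was in none of the 3 windows, in that of Rnf7 alone among the members, and in 2.03% of genes. TGATGTCA, which contains ATGTCA, was in the windows of Rnf148, Rnf151, Rnf146 and Rnf157 and in 4.18% of genes. The longest stretch shared by the Rnf133 and Rnf148 windows was ATGTCACAAT, found in 51 of 27025 genes, Rnf133 and Rnf148 included. This stretch was picked because both windows hold it, so its presence in both is a description as well. A match names letters in a window and not a bound site.

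Rnf148 stood at 6.07 RPKM in the Piwil1+/- library and at 0.535 RPKM in the Piwil1-/- library, a log2 ratio of -2.20. The values correspond to at least 200 and 17 reads, and the fold, Piwil1-/- over Piwil1+/-, was 0.0882 with a 95% counting interval of 0.0504 to 0.145. Only 7 of the 9951 genes at 1 RPKM or more, Rnf148 included, had a log2 ratio this low. Counting intervals are exact binomial intervals on the smallest whole reads that the RPKM pair allows. They cover counting error of these libraries and not the spread between animals.

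Rnf133 was the more abundant of the neighbours, with 17.2 RPKM in the heterozygote against 5.09 RPKM without PIWIL1. Its log2 ratio was -1.58 and its fold 0.296, with an interval of 0.227 to 0.381 and at least 277 and 79 reads behind it. At or below this log2 ratio were 54 genes, 0.543% of those at 1 RPKM or more. The interval of Rnf148 ended below the start of that of Rnf133, so in these libraries the fold of Rnf148 was the lower by more than counting error. Cadps2, whose span holds both genes, was at 0.504 and 0.598 RPKM. It was thus far below both genes in the heterozygote and close to Rnf148 in Piwil1-/-, with a log2 ratio of 0.09. Whether reads were counted by strand is unknown, so what part of the 0.535 RPKM of Rnf148 came from Cadps2 transcripts cannot be told apart.

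Rnf151 had 7.96 RPKM in the heterozygote and 4.39 RPKM in Piwil1-/-, a log2 ratio of -0.73. The fold was 0.552, and its interval, 0.480 to 0.633 from at least 596 and 317 reads, lay above the intervals of Rnf133 and Rnf148. Of all genes, 3.74% lay at or below this log2 ratio. Its neighbours did not share the difference: Rps2 was at 26.7 and 27.4 RPKM, and Ndufb10, a respiratory chain subunit 4002 bp away, at 19.1 and 16.6 RPKM.

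The median log2 ratio of the 3 testis-restricted genes was -1.58 and that of the other 52 members 0.02, a difference of -1.60. The middle 50% of the other members lay between -0.13 and 0.12. Their lowest log2 ratio was -0.70, in Rnf4, so each testis-restricted gene lay below every other member, with Rnf151 only 0.03 below Rnf4. Summed RPKM of the 3 genes was 31.2 in Piwil1+/- and 10.01 in Piwil1-/-, against 842 and 800 for the other members at 1 RPKM or more.

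**Figure D2:**
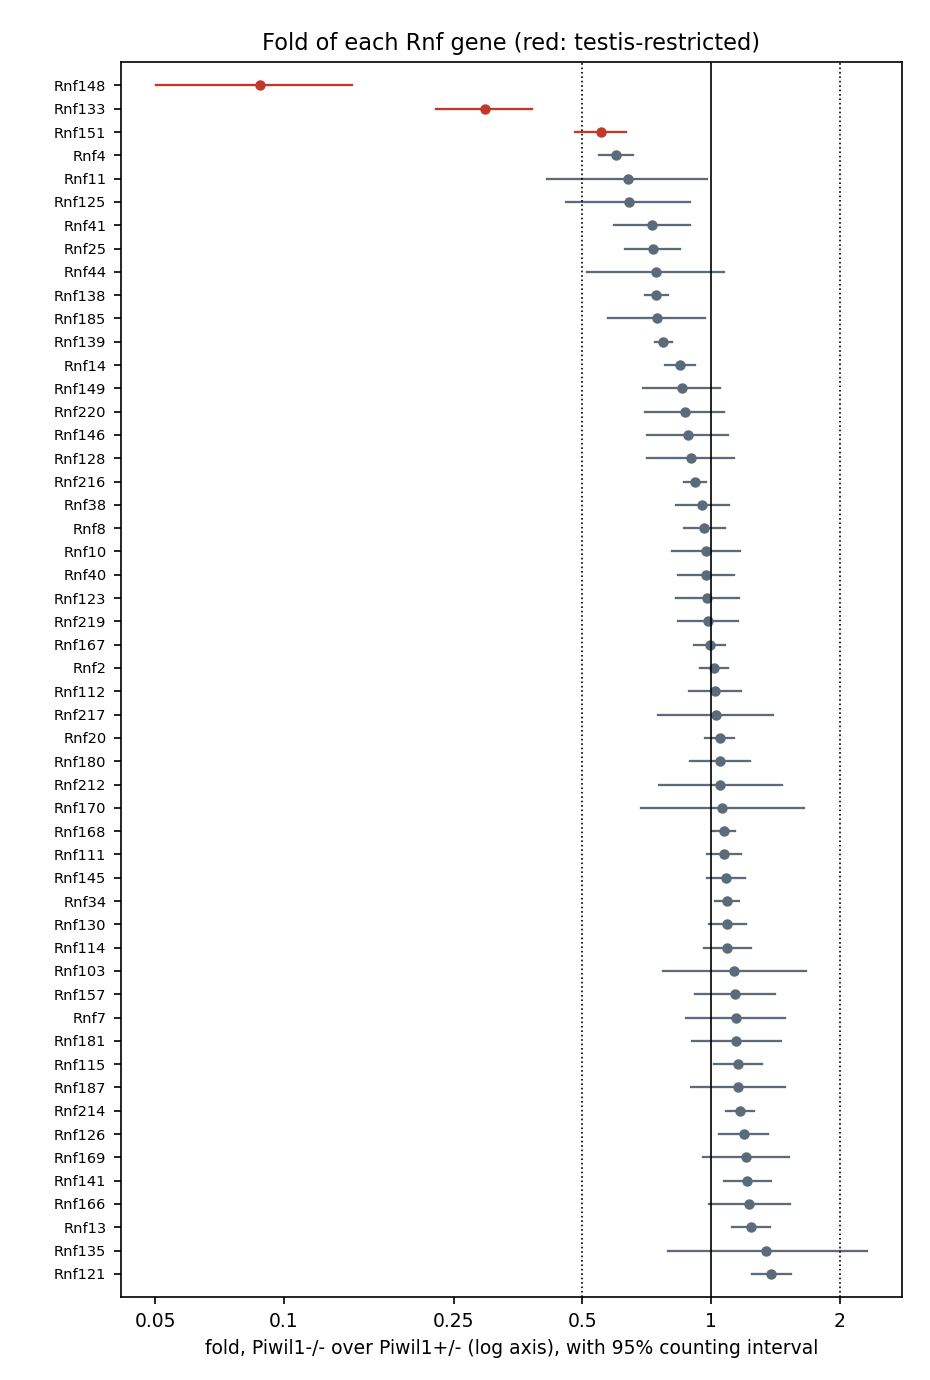
Fold of each Rnf gene, Piwil1-/- over Piwil1+/-, on a log axis, with 95% counting intervals as bars, for the 52 of 55 members whose RPKM pair gave whole reads. Red marks the testis-restricted genes, the solid line equal level and the dotted lines 2-fold; the intervals of Rnf148 and Rnf133 end at 0.145 and 0.381, left of all others.

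Not every germ cell gene of the family was lower. Rnf32, a RING finger gene long known from testis, was the most abundant member, with 214 and 211 RPKM in Piwil1+/- and Piwil1-/-, a log2 ratio of -0.02. It made up 24.5% of the summed RPKM of all members in Piwil1+/-. Rnf141, first described as a testis zinc finger gene, was at 12.8 and 15.5 RPKM (log2 ratio 0.26), and its fold of 1.21 had an interval of 1.07 to 1.38. Rnf212, which marks sites of crossing over in meiosis, was at 3.44 and 3.62 RPKM (0.06). The log2 ratios of these 3 genes lay between -0.02 and 0.26, apart from those of Rnf133, Rnf148 and Rnf151.

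Levels within the family spanned a wide range. After Rnf32, the most abundant members in Piwil1+/- were Rnf139 at 80.5 RPKM, Rnf34, a regulator of apoptosis signalling, at 51.4, Rnf25, a ligase that acts at stalled ribosomes, at 36.9, Rnf138 at 35.5 and Rnf6 at 35.03. Then came Rnf216 at 31.7 RPKM, Rnf167 at 25.01, Rnf4 at 23.95 and Rnf10 at 22.9. In all, 21 members were at 10 RPKM or more and 3 at 50 or more. In Piwil1-/-, Rnf139 was at 62.2 RPKM and Rnf34 at 55.9, so the order of the 3 highest was kept. There Rnf6, at 33.1, and Rnf216, at 29.1, passed Rnf25 at 26.9 and Rnf138 at 26.5.

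Ligases of chromatin and DNA repair were, apart from Rnf4 and Rnf138, close to equal in both genotypes. Rnf4, which adds ubiquitin to SUMO-bearing proteins, had 23.95 RPKM in the heterozygote and 14.3 RPKM in Piwil1-/-, a log2 ratio of -0.70. Its fold was 0.599, and the interval of 0.547 to 0.656, resting on at least 1308 and 755 reads, overlaps that of Rnf151. The RNA A830049F12Rik overlaps its start and has no value here, so their reads cannot be told apart. Of the 9 genes on this list, Rnf4 was the 1 past 1.5-fold (11.1%), against 5.21% of all genes lower and 1.42% higher. The list median was 0.02.

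Rnf8, which ubiquitinates chromatin at DNA breaks and on the sex chromosomes of spermatocytes, was at 8.54 and 8.24 RPKM, a log2 ratio of -0.05. Rnf168, which acts after it, was at 15.3 and 16.4 RPKM (0.09), and Rnf169, a reader of the same mark, at 1.30 and 1.57 (0.16). The partners Rnf20 and Rnf40, which ubiquitinate histone H2B, had log2 ratios of 0.06 and -0.04. Rnf2, the catalytic subunit of Polycomb complex 1, was at 18.8 and 19.1 RPKM (0.02), and Rnf111, a ligase of SUMO-bearing and TGF-beta pathway proteins, was at 3.03 and 3.25 (0.08). Apart from Rnf4, the lower member was Rnf138, which promotes resection of DNA ends, at 35.5 and 26.5 RPKM (log2 ratio -0.41). Its fold was 0.745 (interval 0.701 to 0.791).

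The transmembrane ligases with a protease-associated domain ran from the lowest member, Rnf148, to Rnf13, near the upper end of the family. Of 9 genes, 7 were at 1 RPKM or more, with a median of -0.09. Of these 7, 2 (28.6%) were at least 2-fold lower, against 1.96% of all genes. They are Rnf133 and Rnf148, already counted above, so this share is no separate result. Rnf13, an endosomal and lysosomal ligase, was at 10.9 and 13.5 RPKM (log2 ratio 0.29, fold 1.24, interval 1.12 to 1.37). Rnf130 was at 5.98 and 6.53 RPKM (0.11), Rnf149 at 6.77 and 5.77 (-0.20), and Rnf167, of endosomes and lysosomes, at 25.01 and 24.8 (-0.01). Rnf128, known as GRAIL from T cells, was at 1.24 and 1.11 RPKM (-0.09). Rnf43, which removes Wnt receptors from the cell surface, and Rnf150 were under 0.2 RPKM in both libraries. Apart from Rnf133 and Rnf148, the genes of this list at 1 RPKM or more lay within 1.5-fold. How widely each is expressed across tissues was not measured here.

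Ligases of the endoplasmic reticulum and nearby membranes varied in both directions. Rnf139, a sterol-regulated ligase of this membrane, was at 80.5 and 62.2 RPKM, a log2 ratio of -0.37, with a fold of 0.773 (interval 0.737 to 0.809). Rnf121 had the highest log2 ratio of all members, 0.43, at 8.65 and 11.96 RPKM, and its fold of 1.38 had an interval of 1.25 to 1.54. Rnf185, which acts in degradation of misfolded proteins, was at 2.17 and 1.62 RPKM (-0.27). Its paralog Rnf5 was at 0.301 and 0.110 RPKM, below the level used for counts. On plain RPKM the fold of Rnf5 was 0.366 (interval 0.118 to 0.973, from at least 17 and 6 reads), while its log2 ratio of RPKM + 1 was -0.23. Rnf103, Rnf145 and Rnf170, the last a ligase of the inositol trisphosphate receptor, had log2 ratios of 0.16, 0.09 and 0.07. None of the 6 genes of this list at 1 RPKM or more passed 1.5-fold, against 5.21% of all genes lower and 1.42% higher. Their median was 0.08.

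RING-in-between-RING ligases pass ubiquitin through a cysteine of their own. Rnf216, needed for spermatogenesis in mice, was at 31.7 and 29.1 RPKM, a log2 ratio of -0.12. Rnf14, an androgen receptor coactivator that also acts at stalled ribosomes, was at 19.6 and 16.6 RPKM (-0.23; fold 0.846, interval 0.781 to 0.916). Rnf217 was at 1.08 and 1.11 RPKM (0.02), and Rnf31, which builds linear ubiquitin chains, was under 1 RPKM in both libraries. The 3 at 1 RPKM or more were within 1.5-fold, with a median of -0.12. Of all genes, 5.21% were lower and 1.42% higher by 1.5-fold or more.

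A further 26 members at 1 RPKM or more, in none of these groups, all lay within 1.5-fold on the scale of RPKM + 1. Of all genes, 5.21% were lower and 1.42% higher by 1.5-fold or more. Log2 ratios of the 26 ran from -0.44 to 0.24, with a median of 0.00. The lowest were Rnf25 (36.9 and 26.9 RPKM, -0.44), Rnf11, a regulator of other ubiquitin ligases (2.54 and 1.63, -0.43), Rnf125, a ligase of the antiviral sensor RIG-I (2.20 and 1.41, -0.41), and Rnf41, which controls turnover of growth factor receptors (2.34 and 1.70, -0.30). On plain RPKM, Rnf11 and Rnf125 were 1.56-fold lower in Piwil1-/-, past 1.5-fold. The counting interval of Rnf25 was 0.628 to 0.846, and that of Rnf11 was the widest of these, 0.413 to 0.980, from at least 60 and 37 reads. The highest were Rnf166, an autophagy-linked ligase (4.25 and 5.22 RPKM, 0.24), Rnf135 (0.828 and 1.11, 0.21), Rnf126, of protein quality control (4.28 and 5.09, 0.21), Rnf214 (10.3 and 12.02, 0.21) and Rnf115, a relative of Rnf126 (7.36 and 8.50, 0.18). Rnf135 reached 1 RPKM in Piwil1-/- alone, so it could enter only as higher. The interval of Rnf166, 0.988 to 1.53, and that of Rnf135, 0.791 to 2.31, held 1. Those of Rnf126 (1.04 to 1.36), Rnf214 (1.08 to 1.26) and Rnf115 (1.01 to 1.32) did not. Rnf34 and Rnf181 were also above 0, at 0.12 and 0.16.

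For most members with read numbers the counting interval of the fold held 1. Read numbers were obtained for 52 of the 55 members, with Rnf6, Rnf32 and Rnf213 the exceptions. The interval of the fold lay below 1 for 13 members, above 1 for 8 and held 1 for 31. These are 25% and 15.4% of the 52, against 19.0% below 1 and 16.4% above 1 among 8756 genes with read numbers at 1 RPKM or more, so the shares of the family were near those of all genes. The 13 were Rnf148, Rnf133, Rnf151, Rnf4, Rnf11, Rnf125, Rnf41, Rnf25, Rnf138, Rnf185, Rnf139, Rnf14 and Rnf216. The 8 were Rnf121, Rnf13, Rnf141, Rnf126, Rnf214, Rnf115, Rnf34 and Rnf168. The smallest read number in Piwil1+/- was 27, in Rnf135, and the median was 337.5. These are lower limits, so the intervals are no narrower than counting error requires and may be wider. An interval that holds 1 thus does not show that the difference was within counting error. PCR copies, which are not independent molecules, narrow the intervals by an unknown amount.

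Members below 1 RPKM in both libraries entered no count. Rnf207, Rnf225, Rnf39, Rnf186 and Rnf224 were listed at 0 in both libraries. Of the other 16, the highest were Rnf26, at 0.721 and 0.487 RPKM, Rnf215, at 0.567 and 0.508, Rnf31, at 0.498 and 0.561, and Rnf24, at 0.449 and 0.416.

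Rnf symbols that carry a letter after the number, not counted as members, held 1 gene past 1.5-fold among 5 at 1 RPKM or more. That gene was higher (20%), against 1.42% of all genes higher and 5.21% lower, and 5 genes are too few to compare shares. It was Rnf138rt1, a retrogene copy of Rnf138 on the X chromosome (163760139 to 163761332). Rnf138rt1 had 3.58 RPKM in the heterozygote and 5.92 RPKM in Piwil1-/-, a log2 ratio of 0.60. Its fold was 1.65 (interval 1.42 to 1.93), on the opposite side from its parent gene, at 0.745. How reads common to both copies were assigned is not stated in the labels or headers, and the split between them is uncertain. Rnf113a2 was at 5.04 and 6.90 RPKM (0.39), and its relative Rnf113a1 was under 0.1 RPKM in both libraries. Rnf19a and Rnf19b, RING-in-between-RING ligases, were abundant at 80.3 and 69.3 RPKM in Piwil1+/-, with log2 ratios of -0.14 and -0.06, and Rnf144b was at -0.05.

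**Figure D3:**
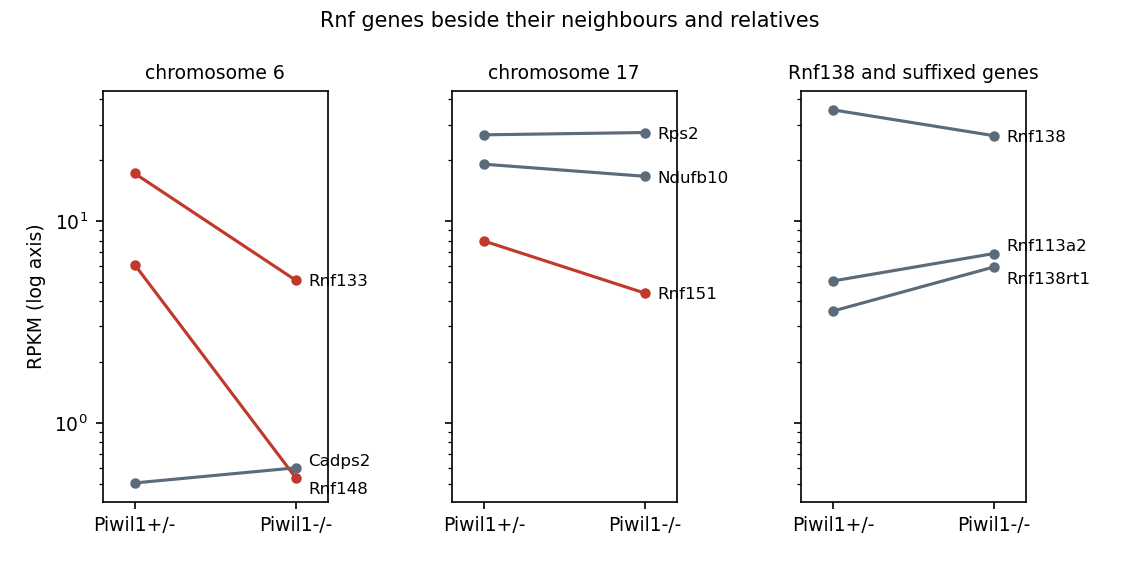
RPKM on a log axis in the 2 libraries, joined by a line for each gene. Rnf133 and Rnf148 are drawn with Cadps2, whose span holds them, Rnf151 with its neighbours Rps2 and Ndufb10, and Rnf138 with the suffixed genes Rnf138rt1 and Rnf113a2; the red testis-restricted genes slope down while Cadps2 and Rps2 stay near level.

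The enzymes that supply RING ligases with ubiquitin were mostly level. Of 36 E2 genes listed, 35 were in the table and 32 reached 1 RPKM, with a median log2 ratio of 0.03. Of these 32, 1 (3.1%) was lower and 1 (3.1%) higher by 1.5-fold or more, against 5.21% and 1.42% of all genes. The lower one was Ube2k, which extends ubiquitin chains, at 16.2 and 10.3 RPKM (-0.61). The higher one was Ube2c, the E2 of the anaphase-promoting complex, at 1.38 and 4.50 RPKM (1.21), with a fold of 3.25 (interval 2.24 to 4.81, resting on 38 and 119 reads or more). Ube2j1, the membrane-anchored E2 that works with RNF133, was the most abundant E2, with 52.4 RPKM in the heterozygote and 36.9 RPKM in Piwil1-/- (-0.50). Its fold of 0.704 (interval 0.670 to 0.739) lay above the interval of Rnf133.

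Ube2s, which extends chains on targets of the anaphase-promoting complex, was at 50.9 and 51.9 RPKM, and Ube2b, needed for spermatid development, at 13.4 and 13.97 (0.06). The E1 genes Uba1, Uba6 and the Y-linked Uba1y had log2 ratios of -0.29, 0.15 and -0.13. Ubb, which encodes ubiquitin itself, was at 241 and 226 RPKM, and Rps27a, which encodes ubiquitin fused to a ribosomal protein, had a log2 ratio of 0.31. None of these 5 genes passed 1.5-fold, against 5.21% of all genes lower and 1.42% higher.

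Ubiquitin ligases with other names were level as well. Of 34 listed, 27 were at 1 RPKM or more. None passed 1.5-fold in either direction, against 5.21% of all genes lower and 1.42% higher. At those shares few of 27 genes would pass. The log2 ratios ran from -0.27 to 0.27 and the median was 0.04. March10, a ligase of elongating spermatids, was the most abundant at 126 and 113 RPKM (-0.16), ahead of Cop1 at 82.3 and 88.9 RPKM (0.11). Znrf4, which has the domain layout of Rnf133, was at 0.137 and 0.132 RPKM.

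Genes of late germ cells differed between the libraries in the direction of the testis-restricted genes. Of 18 genes listed for elongating spermatids, 13 were at 1 RPKM or more, with a median log2 ratio of -1.34. Of these, 11 were at least 2-fold lower and none higher, while 1.96% of all genes were at least 2-fold lower. Spem1, Fscn3, Tnp2, Prm2 and Smcp reached 1 RPKM in Piwil1+/- alone, so they could enter the count only as lower. The spermatid lists were chosen with earlier results of these data known, so their counts are descriptions. Summed RPKM of the 13 genes was 647 in Piwil1+/- and 423 in Piwil1-/-. Prm1, Prm2 and Tnp1, at 0.0616, 1.42 and 0.458 RPKM in the heterozygote, were listed at 0 in Piwil1-/-. Round spermatid genes had a median of -0.53 over 20 of 21 genes, with 4 at least 2-fold lower and 18 below 0, and summed RPKM of 829 and 683. Elongating spermatid genes ranged from -2.47 to -0.27 and round spermatid genes from -1.50 to 0.05. Rnf133, at -1.58, and Rnf148, at -2.20, lay within the first range and below the second. Rnf151, at -0.73, lay within both ranges. The part of spermatids in the lower levels of the 3 genes was not tested.

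Lists of earlier germ cells and somatic cells had medians nearer 0 than the spermatid lists, on either side of it. Meiotic prophase genes had a median of 0.11 over 21 of 23 genes, with summed RPKM of 1134 and 1216. None of the 21 passed 1.5-fold, against 5.21% of all genes lower and 1.42% higher. For Sertoli cells, 6 of 12 genes gave a median of 0.11 (summed RPKM 192 and 202) and for Leydig cells 6 of 8 genes gave -0.18 (152 and 126), with Insl3 listed at 0 in Piwil1+/-. Peritubular, vascular and leukocyte genes had a median of -0.02 over 6 of 9, with summed RPKM of 48.7 and 36.3. That lower sum rests on Actg2, a smooth muscle actin and the 1 gene of this list past 1.5-fold, at 17.6 and 3.04 RPKM from at least 6 reads and 1 read. Its counting interval on these smallest possible reads, 0.00376 to 1.43, held 1. The true reads may be many more, so whether the fold of Actg2 exceeds counting error cannot be told. Acta2, another actin gene of this list, at 20.97 RPKM in Piwil1+/-, had at least 1237 reads there. Without Actg2 the sums were 31.1 and 33.3. The 52 other Rnf genes, at a median of 0.02, lay close to the 0.01 of all genes.

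**Figure D4:**
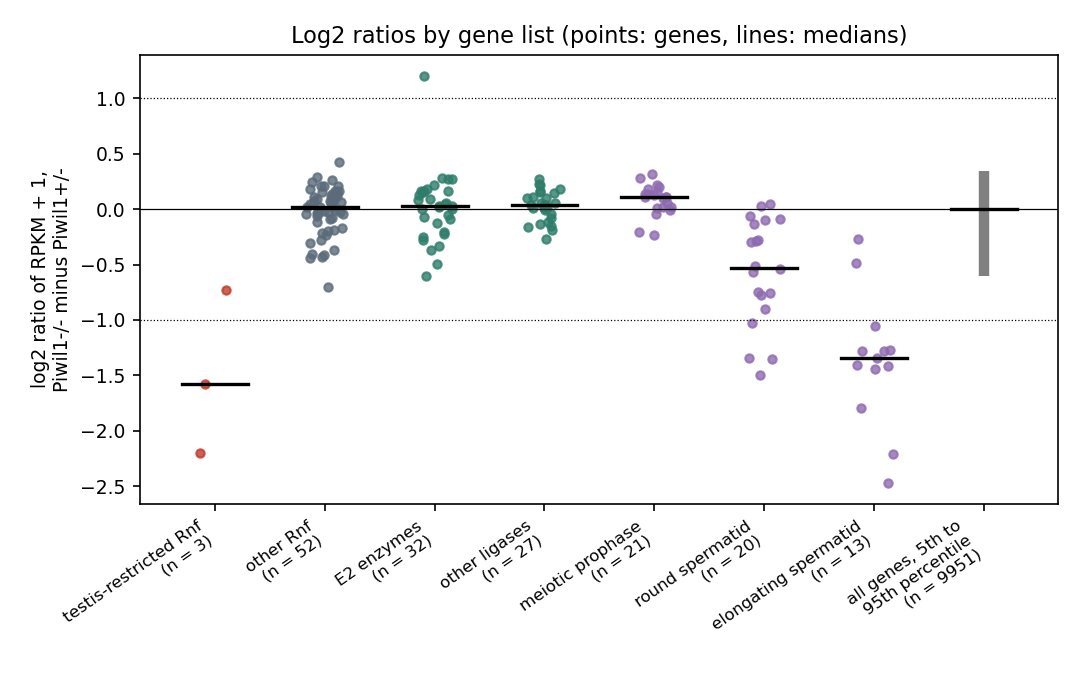
Log2 ratio of RPKM + 1, Piwil1-/- minus Piwil1+/-, for genes at 1 RPKM or more (points) and list medians (black lines), with the 5th to 95th percentile of all 9951 genes as a grey bar. Violet marks the germ cell lists, meiotic prophase (median 0.11) included. The 3 testis-restricted Rnf genes (red, median -1.58) lie among the spermatid genes. The 52 other Rnf genes (grey, median 0.02) lie with the E2 enzymes and other ligases (green) and near the meiotic prophase genes.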

How the data were processed

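Directional RNA-seq libraries depleted of ribosomal RNA were made from testes, per the labels' protocols. The authors deposited the values as RPKM, per the file headers. Bowtie, STAR and build mm10 are named in the submitters' processing notes; for the read counter, annotation, strand setting and library totals the sources used here give nothing. Symbols came from a table of gene names, which matched 22444 of 22808 identifiers. Members and lists were chosen with earlier results of these data known. March symbols were matched through RefSeq synonyms.

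Log2 ratios used a pseudocount of 1 RPKM and genes at 1 RPKM or more in either library. Because RPKM pairs of a gene share its length, the smallest whole reads were found from their ratio, accepting a chance match of at most 2%. This gave reads for 15364 of 16558 genes above 0 in both libraries (92.8%) and a Piwil1-/- total 0.964 times that of Piwil1+/-. Exact binomial (Clopper-Pearson) 95% intervals were computed with scipy 1.17.1. The methods were tested on simulated data. Genes named are the testis-restricted, germ cell and role-list members, the 10 lowest, 10 highest and 10 most abundant members, all past 1.5-fold, and up to 3 others of each further list by level, with a few chosen after their values were seen: Ube2b, Znrf4, Rnf181 and the neighbours of members. Promoter windows and coordinates are RefSeq's (GRCm38.p6). PIWIL1-bound small RNA libraries were not used here.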

Additional observations from a re-analysis of the deposited data

How the results depend on the processing

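The alternatives were pseudocounts of 0.1 and 0.5 RPKM, no minimum level, a minimum of 5 RPKM, and rescaling by the median or by a mean trimmed by 30% at each end, which shifted all log2 ratios by less than 0.01. Under each, 2 members were at least 2-fold lower and none at least 2-fold or 1.5-fold higher. The count of 4 members at least 1.5-fold lower became 6 with a pseudocount of 0.1 RPKM, adding Rnf11 and Rnf125, and stayed at 4 otherwise. With that pseudocount 7.02% of all genes were at least 1.5-fold lower, against 5.21%, and 3.34% at least 2-fold lower, against 1.96%, which is near the 3.64% of members. The difference between the testis-restricted and other medians went from -1.60 to -1.76 with a pseudocount of 0.1 RPKM. It became -0.40 when Rnf32, Rnf141 and Rnf212 were counted as testis genes, so it rests on which genes are so named. Adding suffixed symbols left 2 members at least 2-fold lower. Changing the minimum leaves the log2 ratio of a member as it is, and rescaling shifts it by less than 0.01. Only the pseudocounts could thus move single values further. Intervals on the smallest whole reads may also be too wide, so staying within them is a weak check. Of 294 values of single members with a counting interval, 293 moved by less than the distance from its middle to its ends (log2). The exception was Rnf148, at -3.28 with a pseudocount of 0.1 RPKM. The 17 values of Rnf6, Rnf32 and Rnf213, which have no interval, moved by at most 0.00756. No member past 1.5-fold changed sign, which none of these alternatives could have brought about. Depth limits genes near 1 RPKM most. Leaving Actg2 out, a choice made after seeing the data, turned the log2 ratio of summed RPKM of peritubular, vascular and leukocyte genes from -0.42 to 0.10. No paired analysis was possible because each genotype had 1 library.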
